A study of Mus musculus with 16 samples.

Results

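Osteoclast cultures that carried both a Flt3 internal tandem duplication (FLT3 ITD) knock-in and a Ptprc knockout were compared with wild-type (WT) cultures across all genes. The 8 libraries were chosen by genotype label, 4 of FLT3 ITD Ptprc KO and 4 of WT, out of 16 in the series. The other 8 libraries, 4 of FLT3 ITD alone and 4 of Ptprc KO alone, entered the shared estimate of spread. Their levels are given beside the comparison for the called genes and some others. All mice were on the C57BL/6J background. CD11b-positive bone marrow cells were grown in M-CSF at 50 ng/ml for 3 days and then also in RANKL at 20 ng/ml. RNA was taken when mature osteoclasts first appeared, on days 3 to 5, and the day of each culture was not given. Age and sex of the mice, the zygosity of the knock-in and the exons removed by the knockout were not given in the sources used here. Separate animals are not stated for the replicates, and the p-values speak only of variation among these cultures.

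Osteoclasts are multinucleated cells of the myeloid lineage that dissolve bone. M-CSF keeps their precursors alive, RANKL drives the NFATc1 programme, and the mature cell secretes acid through a vacuolar proton pump and degrades collagen with cathepsin K. FLT3 is a receptor tyrosine kinase of blood progenitors, and its internal tandem duplication makes it signal without ligand, to STAT5 and ERK among others. Ptprc encodes CD45, the abundant transmembrane tyrosine phosphatase of blood cells, which acts on Src-family and JAK kinases. The cultures hold all cells that attach and survive, so in these bulk samples fewer cells of a type and less RNA per cell cannot be told apart.

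Deposited gene counts summed to 30068464 to 31969907 per double-mutant library and to 26678727 to 35773313 per WT library, and the lowest total in the series was 24211724. Levels below are CPM, read counts scaled to a common library total, with library sizes scaled by the trimmed mean of M-values, and they are not divided by gene length. Replicates 1 and 3 of FLT3 ITD differed by 2.68 chi-square units per gene, against 12.5 for the next most alike pair, so these 2 libraries may not be independent. Ptprc was low in all 8 knockout libraries, as given below. Flt3 was low in all groups, at 0.223 ± 0.151 CPM in the double mutant and 0.675 ± 0.529 CPM in WT (SD, n = 4 each; edgeR adjusted p = 0.589), and a gene-level count does not read the duplication.

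Of 21936 genes in the table, 12093 were tested, and 13 differed between double-mutant and WT cultures at an adjusted p below 0.05 (0.108% of those tested). Higher in the double mutant were H2-Q6, H2-Q7, Clec2f, Grap2 and Il7, which is 5 genes (0.0413%). Lower were Ptprc, Gng11, Tfpi2, Akr1c12, Lipo3, Vsig4, Dysf and Paqr9, which is 8 genes (0.0662%). These calls rest on edgeR's quasi-likelihood F-test with Benjamini-Hochberg adjustment over all tested genes. At an unadjusted p below 0.05 there were 954 genes (7.89%), 508 of them higher (4.2%) and 446 lower (3.69%). Library ranges did not overlap for 665 genes (5.5%), 355 of them higher (2.94%) and 310 lower (2.56%). The median log2 fold change over all tested genes was 0.0533, with 43.7% of genes negative.

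The number of calls depended on the libraries used. It was 1 without double-mutant replicate 1 or 4, 4 without double-mutant replicate 2, and 83 without double-mutant replicate 3. It was 3 without WT replicate 1, 4 without WT replicate 2, 1 without WT replicate 3 and 5 without WT replicate 4. Ptprc was called in every one of these. With only the 8 compared libraries in the fit, 1 gene was called, again Ptprc, while 1204 genes had an unadjusted p below 0.05. All 13 genes kept their sign wherever they were tested.

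**Figure D1:**
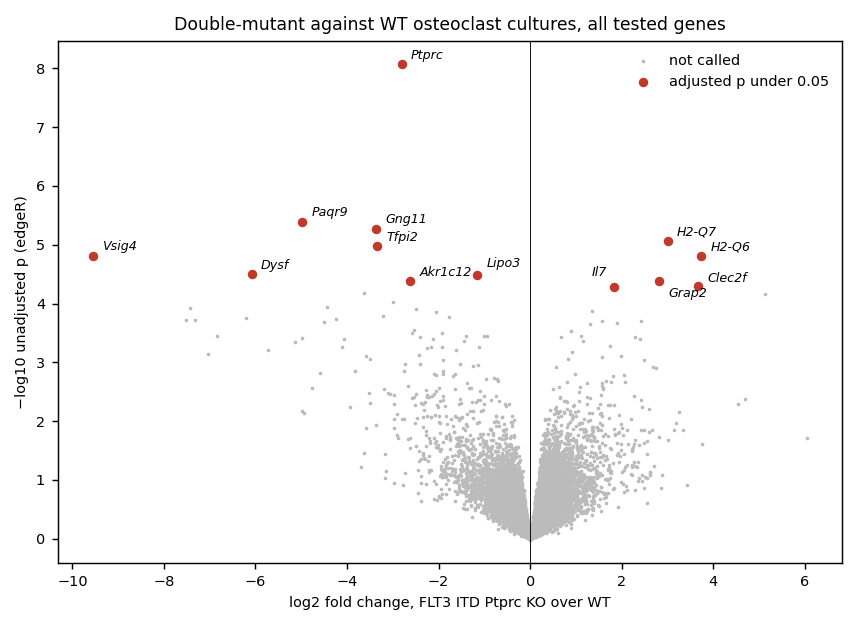
Each point is 1 of 12093 tested genes, with the log2 fold change of FLT3 ITD Ptprc KO over WT on the horizontal axis and the negative log10 of edgeR's unadjusted p on the vertical axis. The 13 called genes are red and named, 5 to the right of zero and 8 to the left, with Ptprc far above the others.

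The H2-Q genes encode non-classical MHC class I proteins of the Qa-2 family, and H2-Q6 and H2-Q7 lie next to each other on chromosome 17. Their upstream sequences, 250 bases before to 50 after the annotated start, are shown because the neighbours moved together and their promoters can be read side by side. The sequences are RefSeq's, on GRCm38.p6, plus strand, at chr17:35424600-35424899 for H2-Q6 and chr17:35438905-35439204 for H2-Q7. Capitals mark a kappaB site (the longer stretch) and CCAAT or its reverse complement ATTGG, the CCAAT box.
H2-Q6: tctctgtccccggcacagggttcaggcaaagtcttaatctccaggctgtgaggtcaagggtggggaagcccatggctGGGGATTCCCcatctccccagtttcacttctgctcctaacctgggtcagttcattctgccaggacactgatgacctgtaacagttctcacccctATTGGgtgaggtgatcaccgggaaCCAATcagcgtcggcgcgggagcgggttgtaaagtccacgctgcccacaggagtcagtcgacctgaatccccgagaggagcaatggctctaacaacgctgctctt
H2-Q7: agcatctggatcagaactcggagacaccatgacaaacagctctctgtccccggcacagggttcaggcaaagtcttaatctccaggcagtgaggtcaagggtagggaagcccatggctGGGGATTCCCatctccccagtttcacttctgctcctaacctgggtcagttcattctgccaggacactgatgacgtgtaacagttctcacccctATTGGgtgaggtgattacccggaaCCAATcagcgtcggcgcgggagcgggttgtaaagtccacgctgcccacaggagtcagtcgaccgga
A global alignment of the sequences had equal bases at 255 of 340 positions (75.0%). Each sequence has 300 bases, so the alignment holds gaps, and these count as unequal. The share therefore understates how alike the paired bases are. The kappaB letters, searched on both strands, start 173 bases before the annotated start of H2-Q6 and 133 bases before that of H2-Q7. They occur in 34 of 27025 genes with a promoter in the table (0.126%), and CCAAT in 41.1%. The promoter of H2-Q4 holds CCAAT on both strands and not the exact kappaB letters. At the matching place it reads GGGGATTTCCC, with a further T, so the search did not count it. The CCAAT and kappaB letters were chosen after the H2-Q sequences had been read. A match is a description of letters and not a bound site.

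H2-Q7 (chr17:35439155-35443773) had 45.3, 8.58, 49.9 and 59.1 CPM in double-mutant replicates 1 to 4, against 4.91, 3.10, 4.84 and 7.39 CPM in WT replicates 1 to 4. Every double-mutant library lay above every WT library, and replicate 2 of the double mutant was far below the other three. The log2 fold change was 3.01 ± 0.449 (SE; edgeR adjusted p = 0.0257, n = 4 each). FLT3 ITD cultures averaged 12.6 ± 2.0 CPM and Ptprc KO cultures 11.8 ± 2.32 CPM (SD, n = 4 each), between the levels of the other genotypes. Leaving out a library ended the H2-Q7 call in 5 of 8 cases, with an adjusted p of up to 0.0964, and the fold change stayed between 2.75 and 3.35.

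H2-Q6 (chr17:35424850-35430055) had 26.5, 3.56, 21.3 and 27.9 CPM in double-mutant replicates 1 to 4, against 1.28, 0.822, 1.68 and 2.17 CPM in WT. The ranges did not overlap, and again double-mutant replicate 2 was the lowest of its group. Its log2 fold change was 3.74 ± 0.588 (SE; edgeR adjusted p = 0.0265). Levels averaged 4.25 ± 2.64 CPM in FLT3 ITD and 3.46 ± 0.794 CPM in Ptprc KO cultures (SD, n = 4 each). Leaving out a library ended the H2-Q6 call in 6 of 8 cases (adjusted p up to 0.0972). Within the longest annotated transcript, 10.8% of 100-base windows of H2-Q6 and 12.9% of those of H2-Q7 also occur in another gene's transcript. The sources used here do not say how the counting placed reads shared between these genes, so the split between H2-Q6 and H2-Q7 is uncertain.

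Other class I genes near them were measured with the same libraries and did not pass the test. H2-Q4, also of the Qa group, had 102, 35.3, 45.2 and 65.8 CPM in the double mutant against 27.4, 12.3, 22.9 and 22.5 CPM in WT, without overlap (log2 fold change 1.55 ± 0.446 SE, edgeR adjusted p = 0.348). The classical class I gene H2-K1, which presents peptides to cytotoxic T cells, had 798 to 1080 CPM in the double mutant and 441 to 721 CPM in WT (0.67 ± 0.289, adjusted p = 0.601). H2-D1 was at 1380 to 2380 CPM in the double mutant and 907 to 1580 CPM in WT (0.63 ± 0.371, adjusted p = 0.601). H2-T23, which encodes the ligand of an NK cell receptor, averaged 103.4 ± 23.0 CPM in the double mutant and 100.9 ± 14.7 CPM in WT (SD, n = 4 each; log2 fold change 0.03, adjusted p = 0.963). Of 71 genes tested within 1 Mb of H2-Q7, the called one was H2-Q6, and 7 had an unadjusted p below 0.05.

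Clec2f, Grap2 and Il7 were higher at low levels and were named after their values were seen, since their levels lay below the 5 CPM of the rule for named genes. Clec2f (chr6:129014112-129020527), annotated as a transcribed pseudogene of the C-type lectin cluster, had 2.39, 1.28, 1.01 and 2.25 CPM in the double mutant against 0.104, 0.0796, 0.0344 and 0.32 CPM in WT. Its log2 fold change was 3.67 ± 0.647 (SE; edgeR adjusted p = 0.0483), from 221 counts in the double mutant and 16 in WT. FLT3 ITD libraries averaged 0.734 ± 0.241 CPM and Ptprc KO libraries 0.032 ± 0.0427 CPM (SD, n = 4 each), so WT and Ptprc KO were both close to zero.

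Grap2 (chr15:80572594-80652854) encodes Gads, an adaptor that links receptors to the scaffold SLP-76. It had 3.68, 3.91, 1.86 and 4.83 CPM in the double mutant against 0.761, 0.239, 0.481 and 0.533 CPM in WT. No double-mutant library overlapped WT, and replicate 3 was the lowest of the 4. The log2 fold change was 2.82 ± 0.488 (SE; edgeR adjusted p = 0.0464). FLT3 ITD averaged 1.34 ± 0.709 CPM and Ptprc KO 0.592 ± 0.238 CPM (SD, n = 4 each).

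Il7 (chr3:7569994-7613760), the cytokine needed by early lymphocytes, had 1.16, 2.32, 2.38 and 2.13 CPM in the double mutant against 0.657, 0.663, 0.275 and 0.64 CPM in WT. The log2 fold change was 1.83 ± 0.324 (SE; edgeR adjusted p = 0.0483). FLT3 ITD cultures, at 1.69 ± 0.237 CPM, were near the double mutant, and Ptprc KO cultures were at 0.918 ± 0.206 CPM (SD, n = 4 each). The calls of Clec2f, Grap2 and Il7 were each lost in 6 or 7 of 8 fits that left out a library, with adjusted p-values of up to 0.183.

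Among the genes that fell, Ptprc (chr1:138062861-138175708) checked the label. It had 54.1, 86.7, 63.8 and 54.5 CPM in double-mutant replicates 1 to 4, against 472, 412, 464 and 469 CPM in WT. The groups were far apart, and the log2 fold change was -2.81 ± 0.24 (SE; edgeR adjusted p = 1.04e-04). Reads remained in every knockout library: Ptprc KO averaged 38.7 ± 6.45 CPM, and FLT3 ITD, with the gene intact, 400.7 ± 128.6 CPM (SD, n = 4 each). The Ptprc call held in all 8 fits that left out a library.

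Gng11 and Tfpi2 are neighbours on chromosome 6 and fell together. Gng11 (chr6:4003904-4008445), a gamma subunit of heterotrimeric G proteins, had 1.16, 1.00, 2.18 and 0.66 CPM in the double mutant against 9.40, 11.8, 16 and 14.3 CPM in WT (log2 fold change -3.36 ± 0.481 SE, edgeR adjusted p = 0.0214). Tfpi2 (chr6:3962595-3988919), a secreted Kunitz-type inhibitor of serine proteases, had 0.398, 0.657, 1.47 and 0.33 CPM in the double mutant against 6.05, 7.32, 7.18 and 8.42 CPM in WT (-3.34 ± 0.509 SE, adjusted p = 0.0259). In both, double-mutant replicate 3 was the highest of its group and still below every WT library.

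Neither single mutant had such low levels of these genes. Gng11 averaged 10.3 ± 7.67 CPM in FLT3 ITD and 14.6 ± 4.53 CPM in Ptprc KO, and Tfpi2 averaged 5.35 ± 2.80 CPM in FLT3 ITD and 10.6 ± 4.78 CPM in Ptprc KO (SD, n = 4 each). In FLT3 ITD replicates 1 to 4, Gng11 had 6.24, 21.7, 5.57 and 7.53 CPM, and Tfpi2 had 5.23, 9.23, 4.31 and 2.62 CPM. Replicates 1, 3 and 4 thus lay below every WT library for both genes, and replicate 2 lay above every WT library and raised the FLT3 ITD means. The interaction term, which is the double-mutant change beyond the sum of the single-mutant changes, was -3.21 ± 0.634 for Gng11 and -3.46 ± 0.672 for Tfpi2 (SE). With adjustment over all genes neither interaction passed (edgeR adjusted p = 0.21 and 0.205). The Gng11 call was lost in 4 and the Tfpi2 call in 7 of 8 fits that left out a library, with adjusted p-values of up to 0.0964 and 0.0972. Calcr, the calcitonin receptor gene of osteoclasts, lies within 1 Mb of this pair and is described with the osteoclast genes. Of 8 genes tested within 1 Mb of Tfpi2, the other called gene was Gng11, and 4 had an unadjusted p below 0.05.

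Akr1c12 (chr13:4268176-4279433) encodes an aldo-keto reductase. It had 1.99, 1.83, 4.17 and 2.16 CPM in the double mutant against 17.8, 20.1, 12.1 and 12.3 CPM in WT, without overlap (log2 fold change -2.62 ± 0.453 SE, edgeR adjusted p = 0.0464). Ptprc KO cultures were as low, at 2.27 ± 0.381 CPM, and FLT3 ITD cultures ranged widely, at 4.75 ± 3.56 CPM (SD, n = 4 each). FLT3 ITD replicates 1 to 4 had 9.74, 4.76, 2.75 and 1.75 CPM, so every library of each mutant genotype lay below every WT library. The interaction was 1.87 ± 0.615 (SE; adjusted p = 0.255). Its close relative Akr1c13, which shares 11.5% of 100-base windows with it, was at 48.9 ± 8.91 CPM in the double mutant and 55.9 ± 6.55 CPM in WT (SD, n = 4 each; -0.19 ± 0.217 SE, adjusted p = 0.698). The Akr1c12 call was lost in 7 of 8 fits that left out a library (adjusted p up to 0.191).

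The promoter of Akr1c12 is shown because it holds AGGAAGT, the core of the site of the myeloid factor PU.1, at 2 places, in capitals. It lies on the minus strand at chr13:4279350-4279649 (RefSeq, GRCm38.p6).
Akr1c12: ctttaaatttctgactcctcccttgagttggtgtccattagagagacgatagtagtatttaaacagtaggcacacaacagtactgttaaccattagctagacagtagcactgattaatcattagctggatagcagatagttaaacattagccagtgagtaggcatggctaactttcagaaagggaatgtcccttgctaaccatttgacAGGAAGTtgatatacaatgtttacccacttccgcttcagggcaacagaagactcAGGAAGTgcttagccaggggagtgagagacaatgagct
The copies begin 42 bases before the annotated start and at base 13 after it. AGGAAGT on either strand occurs in 10.7% of genes with a promoter in the table. Of the 6 genes that fell and have a promoter there, 2 hold it, and of the 3 that rose, 0. The STAT letters TTCNNNGAA (9.55% of all genes), the E-box CACGTG (8.09%) and the interferon element (3.99%) were in 0 promoters of either group. The AP-1 letters TGANTCA (8.97%) were in 1 promoter of the genes that fell. With so few promoters, these shares are descriptions without a test.

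Lipo3 (chr19:33555160-33761951), a member of the acid lipase family, had 10.1, 12, 21.6 and 14.4 CPM in the double mutant against 32.2, 33.9, 30.4 and 32.7 CPM in WT. The WT libraries were tightly grouped, and the double-mutant libraries were all lower (log2 fold change -1.15 ± 0.195 SE, edgeR adjusted p = 0.0435). FLT3 ITD cultures were at 23.0 ± 2.04 CPM and Ptprc KO cultures at 32.3 ± 5.08 CPM (SD, n = 4 each). Lipo3 overlaps 6 annotated genes on its own strand, among them its relative Lipo2, so its reads may be shared with them. The Lipo3 call was lost in 7 of 8 fits that left out a library (adjusted p up to 0.179).

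Vsig4, Dysf and Paqr9 were almost absent from the double mutant. Vsig4 (chrX:96247203-96293438), the complement receptor of tissue macrophages, had 0 counts in all 4 double-mutant libraries, against 57, 32, 131 and 150 counts in WT. Against a floor of 3 counts over the group it was at least 125-fold lower (edgeR adjusted p = 0.0265). FLT3 ITD libraries were also at 0, and Ptprc KO libraries averaged 3.02 ± 1.08 CPM (SD, n = 4). Leaving out a library ended the Vsig4 call in 6 of 8 cases (adjusted p up to 0.0964).

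Dysf (chr6:84008590-84211060) encodes dysferlin, a membrane repair protein. It had 1 count in the double mutant, in replicate 1, against 9, 14, 43 and 32 counts in WT. The WT to double-mutant ratio of depth-scaled counts was 99.4 (95% interval 17.4 to 3960, counting error only; edgeR adjusted p = 0.0435). Paqr9 (chr9:95559657-95568023), of the progestin and adipoQ receptor family, had 0.0919, 0.0346, 0.0651 and 0.03 CPM in the double mutant against 1.00, 0.69, 2.30 and 3.55 CPM in WT (log2 fold change -4.98 ± 0.697 SE, adjusted p = 0.0214). In both genes FLT3 ITD was near zero as well, at 0.0712 CPM for Dysf and 0.105 CPM for Paqr9 on average, and Ptprc KO averaged 1.59 CPM for Dysf and 2.85 CPM for Paqr9. The Dysf call was lost in 7 and the Paqr9 call in 4 of 8 fits that left out a library, with adjusted p-values of up to 0.179 and 0.0964.

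**Figure D2:**
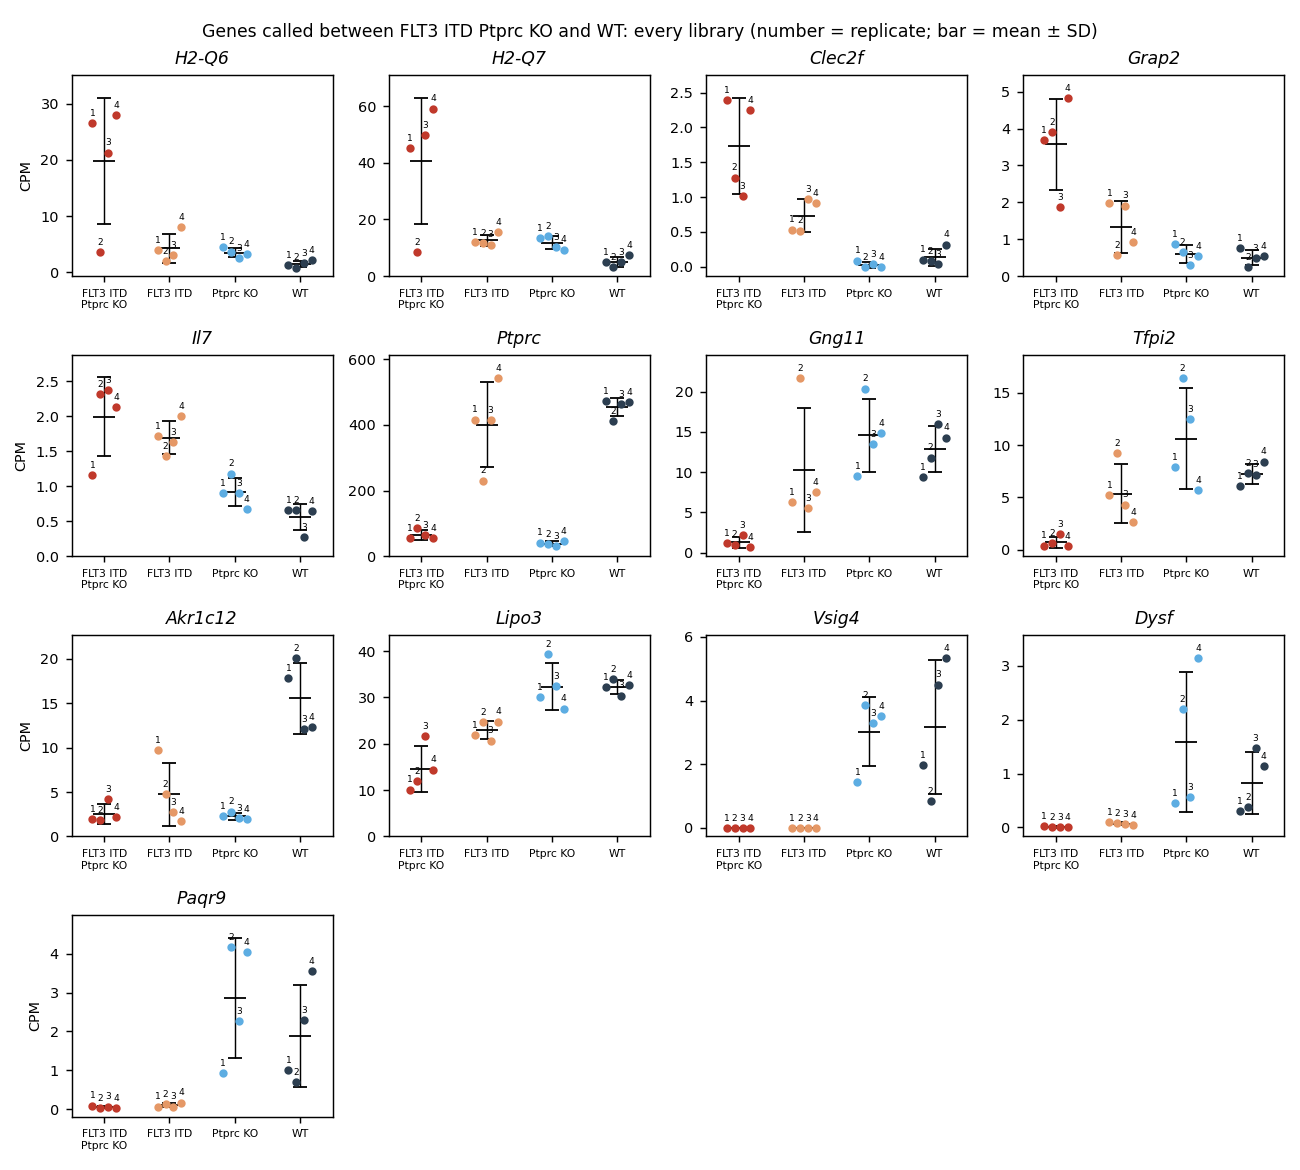
Every library is plotted for the 13 called genes, in CPM on a linear axis, with groups from left to right FLT3 ITD Ptprc KO, FLT3 ITD, Ptprc KO and WT, digits for replicate numbers and bars for mean ± SD (n = 4). Vsig4, Dysf and Paqr9 are near zero in both groups with FLT3 ITD, Akr1c12 is below WT in every mutant group, and Gng11 and Tfpi2 are lowest in the double mutant.

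Against each single mutant, the double mutant was also tested, with the same 16 libraries in the fit. Against FLT3 ITD, 1 gene was called over all genes (0.00827%), and of the 13 it was Ptprc. Against Ptprc KO, 11 genes were called (0.091%), and 7 of the 13 were among them: Gng11, Tfpi2, Lipo3, Vsig4, Dysf, Clec2f and Paqr9. Since these comparisons share the double-mutant libraries with the comparison to WT, they are not independent of it. For the interaction, 0 of the 13 passed by edgeR and 1 gene did over all genes (0.00827%). At an unadjusted p below 0.05 there were 7 of 13, by DESeq2 2 of 13 passed, and by limma voom with quality weights 6 of 13.

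Further genes were taken in order of p among those with at least 5 CPM in a group and ranges that do not overlap. They did not pass edgeR's test, and DESeq2 called all 12 of those named here. On the higher side, Arhgap6, a GTPase-activating protein, had 24.6, 46.6, 19.1 and 35.4 CPM in the double mutant against 10.6, 11.7, 13.4 and 13.7 CPM in WT (log2 fold change 1.34 ± 0.262 SE, edgeR adjusted p = 0.0801). Rgs14, a regulator of G protein signalling, had 63.6, 39.9, 32.3 and 62.0 CPM in the double mutant against 22.4, 21.5, 18.7 and 28.2 CPM in WT (1.12 ± 0.242, adjusted p = 0.102). Rras2, a Ras-related GTPase, averaged 10.4 ± 3.14 CPM in the double mutant and 4.23 ± 0.455 CPM in WT (SD, n = 4 each; 1.30 ± 0.268 SE, adjusted p = 0.0856). C1qtnf6, a secreted protein with a C1q domain, averaged 11.8 ± 1.49 CPM in the double mutant and 3.95 ± 1.19 CPM in WT, and it was at 12.5 ± 6.18 CPM in FLT3 ITD (SD, n = 4 each; adjusted p against WT 0.0831). Ube2e2, a ubiquitin-conjugating enzyme, and Scly, selenocysteine lyase, had log2 fold changes of 0.90 and 0.68 (adjusted p = 0.102 for each). Ranges that do not overlap were a condition for naming these genes and not a result.

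On the lower side, the macrophage secreted protein gene Cd5l had 18.3, 4.98, 1.63 and 2.16 CPM in the double mutant against 65.2, 35.2, 222 and 147 CPM in WT (log2 fold change -4.11 ± 0.93 SE, edgeR adjusted p = 0.12; DESeq2 7.03e-05). Gdf3, of the TGF-beta family, had 0.245, 0.692, 0.586 and 0.42 CPM in the double mutant against 5.50, 1.94, 24.1 and 10.6 CPM in WT (-4.43 ± 0.849, adjusted p = 0.0785). Hpgd, the enzyme that inactivates prostaglandins, averaged 0.433 ± 0.543 CPM in the double mutant and 7.24 ± 5.78 CPM in WT (SD, n = 4 each; adjusted p = 0.102). Within WT, replicates 3 and 4 were the higher ones for Cd5l, Gdf3 and Hpgd. FLT3 ITD alone was near the double mutant for these genes, at 4.39 ± 4.07, 0.585 ± 0.620 and 0.277 ± 0.18 CPM. Ptprc KO averaged 153.9 ± 111.3, 15.9 ± 11.2 and 4.07 ± 1.72 CPM in the same order (SD, n = 4 each). Tfpi, an inhibitor of the clotting cascade, averaged 2.49 ± 1.07 CPM in the double mutant and 10.9 ± 3.46 CPM in WT (-2.12 ± 0.465 SE, adjusted p = 0.102). Lonrf1, a ring finger protein, and Sema4b, a semaphorin, had log2 fold changes of -0.95 and -1.01 (adjusted p = 0.102 for each). In FLT3 ITD, Tfpi averaged 4.05 ± 2.79, Lonrf1 25.2 ± 5.44 and Sema4b 7.35 ± 1.16 CPM (SD, n = 4 each). Several of these 12 genes were called once double-mutant replicate 3 was left out, among them Arhgap6, Rras2 and Scly at an adjusted p of 0.0294.

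Groups of genes were described with 32 lists, 21 of pathways and 11 of cell type markers, which together held 512 tested genes. The list gene that edgeR called was Vsig4, and 68 list genes had an unadjusted p below 0.05, beside 7.89% of all tested genes. DESeq2 called 5 list genes higher and 11 lower, beside 117 of all 12093 genes (0.968%), 37 higher (0.306%) and 80 lower (0.662%). Limma voom with quality weights called 80 list genes higher and 116 lower, beside 3898 of all genes (32.2%), 2089 higher (17.3%) and 1809 lower (15.0%). Without quality weights voom called 1 list gene. In what follows a list member passed or was called where edgeR's adjusted p was below 0.05, unless another tool is named, and the voom counts are those with quality weights. Beside an unadjusted p, "lower" or "higher" gives the sign of the fold change and not a passed adjusted test. The same over all tested genes was a median of 0.0533 and 43.7% negative. Library ranges did not overlap for 2.94% of all tested genes on the higher side and 2.56% on the lower side. Each voom count below is to be set beside the 17.3% of all genes that voom called higher and the 15.0% it called lower.

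**Figure D3:**
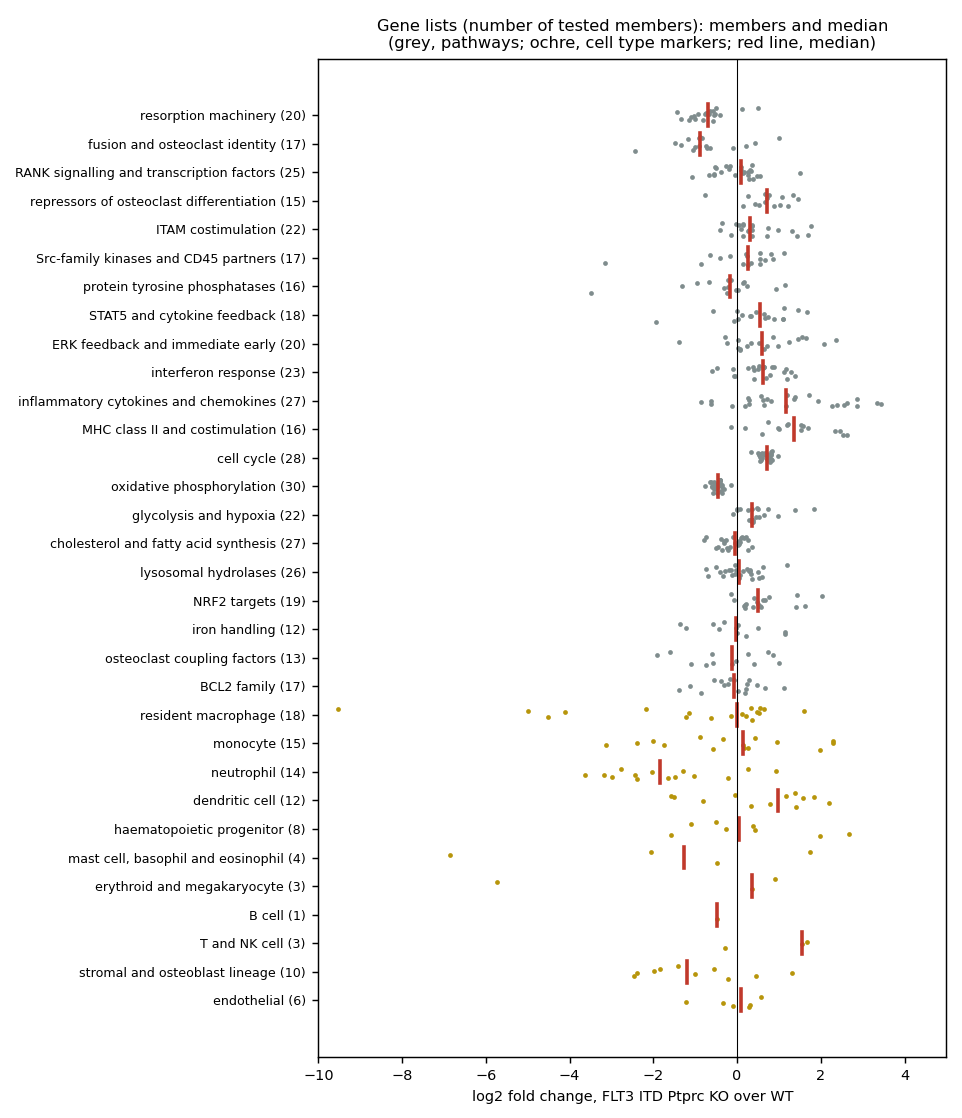
Each point is 1 tested member of a gene list, placed by its log2 fold change of FLT3 ITD Ptprc KO over WT, and the red line is the list's median. Resorption, fusion and oxidative phosphorylation genes lie mostly left of zero, cell cycle, MHC class II and inflammatory genes mostly right of it, and resident macrophage genes spread widely on both sides.

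The resorption list holds the acid and protease machinery of the mature osteoclast. With all libraries 0 of 20 genes passed by edgeR and 0 by DESeq2, while voom called 18 lower; 6 had an unadjusted p below 0.05, all lower, 18 of 20 were negative, and the median log2 fold change was -0.70. Ctsk, cathepsin K, had 1900, 1400, 8510 and 1170 CPM in double-mutant replicates 1 to 4, against 7300, 9370, 7860 and 8100 CPM in WT. Replicates 1, 2 and 4 lay far below every WT library, while replicate 3 lay within the WT range, and the log2 fold change was -1.33 ± 0.609 (SE; edgeR adjusted p = 0.601). Acp5, tartrate-resistant acid phosphatase, had 1360, 1590, 7130 and 1220 CPM in the double mutant against 5970, 7320, 5330 and 5800 CPM in WT (-1.11 ± 0.56, adjusted p = 0.601). Car2, carbonic anhydrase 2, which supplies protons, had 62.5, 67.7, 379 and 54.6 CPM in the double mutant against 289, 424, 290 and 521 CPM in WT (-1.44 ± 0.654, adjusted p = 0.601). The same replicate stood apart in all 3 genes.

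Without double-mutant replicate 3, 83 of 12190 tested genes were called (0.681%), 15 higher (0.123%) and 68 lower (0.558%), and all 13 genes above were among them. The 70 further genes included 4 of the resorption list, all lower: Ctsk (-2.45 ± 0.487 SE, edgeR adjusted p = 0.044), Acp5 (-2.13 ± 0.437, adjusted p = 0.047), Car2 (-2.63 ± 0.545, adjusted p = 0.0476) and Slc9b2, a sodium-proton exchanger (-2.03, adjusted p = 0.0476). Slc9b2 had 68.3, 70.8, 357 and 106 CPM in double-mutant replicates 1 to 4 and 308, 330, 338 and 364 CPM in WT. The list's median was -1.26 without that library. Of the 68 lower genes, replicate 3 was above the other 3 double-mutant libraries for 62 and at or above the lowest WT library for 35. The labels give no reason to set this library aside, so the calls without it are an alternative and not the result.

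The fusion and identity list holds receptors and fusion proteins of the osteoclast. By edgeR 0 of 17 genes passed with all libraries, by DESeq2 Calcr did, and voom called 1 higher and 13 lower; 3 had an unadjusted p below 0.05, 14 were negative, and the median was -0.88, or -1.47 without double-mutant replicate 3. Calcr, the calcitonin receptor, had 14.5, 9.61, 29.4 and 3.33 CPM in the double mutant against 85.3, 72.8, 76.4 and 72.8 CPM in WT. Here replicate 3 was low too, no library overlapped, and the log2 fold change was -2.44 ± 0.574 (SE; edgeR adjusted p = 0.148). By DESeq2 the adjusted p of Calcr was 0.00192, and without double-mutant replicate 3 edgeR called it (-3.07 ± 0.578, adjusted p = 0.0367).

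Oscar, an osteoclast receptor that signals through the Fc receptor gamma chain, had 35.0, 29.8, 201 and 11.7 CPM in the double mutant against 160, 166, 167 and 209 CPM in WT (-1.34 ± 0.69 SE, edgeR adjusted p = 0.601). Mst1r, the receptor RON, had 33.8, 38.6, 233 and 20.4 CPM in the double mutant against 183, 248, 237 and 236 CPM in WT (-1.47 ± 0.665, adjusted p = 0.601). Both were called without double-mutant replicate 3, with adjusted p-values of 0.0374 and 0.0294. Atp6v0d2, the osteoclast subunit of the proton pump, had 210, 457, 1410 and 345 CPM in the double mutant against 1180, 1400, 1070 and 1240 CPM in WT (-1.01 ± 0.539, adjusted p = 0.601). Dcstamp, a fusion receptor, had 160, 175, 554 and 237 CPM in the double mutant and 390, 764, 368 and 594 CPM in WT (-0.91 ± 0.499, adjusted p = 0.601).

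**Figure D4:**
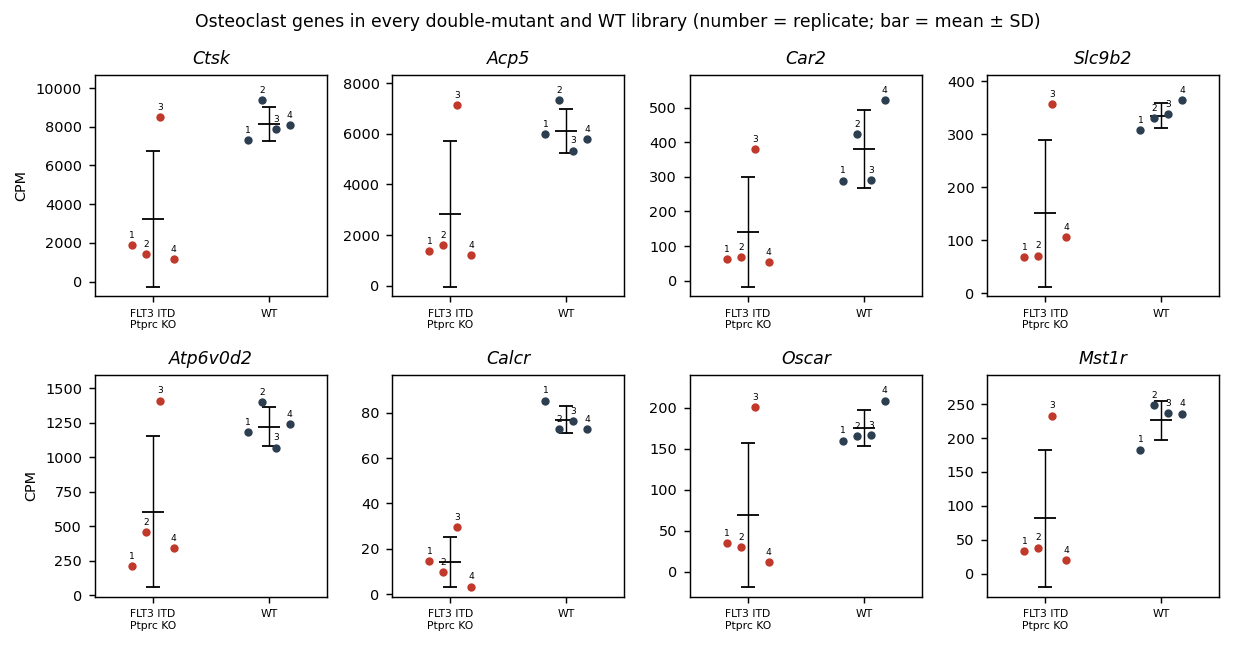
CPM of 8 osteoclast genes in each FLT3 ITD Ptprc KO library (left) and WT library (right) on linear axes, digits giving the replicate number and bars the mean ± SD (n = 4). In all but Calcr, double-mutant replicate 3 sits at the WT level while replicates 1, 2 and 4 sit far below it.

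The upstream RANK signalling list had members of both signs. Of 25 genes 0 passed by edgeR and 1 by DESeq2, and voom called 2 higher and 9 lower; 2 had an unadjusted p below 0.05, 14 were positive and 11 negative, and the median was 0.10, which turned to -0.05 without double-mutant replicate 2. Tnfrsf11a, which encodes RANK, had 162, 146, 259 and 178 CPM in the double mutant against 234, 246, 196 and 216 CPM in WT (log2 fold change -0.26 ± 0.22 SE, edgeR adjusted p = 0.627). Nfatc1 averaged 342.6 ± 268.2 CPM in the double mutant and 491.2 ± 19.3 CPM in WT (SD, n = 4 each, -0.52 ± 0.512 SE, adjusted p = 0.661). Jun went the other way, at 164.7 ± 43.0 CPM in the double mutant and 111.9 ± 22.4 CPM in WT (0.56 ± 0.213 SE, adjusted p = 0.569). Tal1, a transcription factor of early blood cells, had 1.13, 1.11, 1.43 and 2.10 CPM in the double mutant and 2.87, 2.81, 3.57 and 3.02 CPM in WT, without overlap (-1.09 ± 0.306, adjusted p = 0.322; DESeq2 adjusted p = 0.0443). Of the 15 repressors of osteoclast differentiation 0 passed by edgeR or DESeq2, voom called 4 higher and 1 lower, 2 had an unadjusted p below 0.05, and 14 were positive. Their median was 0.71, which was 0.12 without double-mutant replicate 2, 0.47 without WT replicate 2 and 1.13 without WT replicate 3. Klf2, a repressor expressed in quiescent monocytes, had 31.8, 32.6, 20.0 and 9.33 CPM in the double mutant and 8.13, 8.04, 13.4 and 7.53 CPM in WT (1.34 ± 0.495, adjusted p = 0.562).

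Genes close to the 2 mutated proteins were described next. Of 17 Src-family kinases and CD45 partners 0 passed by edgeR or DESeq2, voom called 5 higher and 2 lower, and 5 had an unadjusted p below 0.05. Cblb, a ubiquitin ligase for tyrosine kinases, had 26.3, 35.7, 50.9 and 26.5 CPM in the double mutant against 67.0, 59.1, 65.2 and 63.3 CPM in WT, without overlap (log2 fold change -0.87 ± 0.31 SE, edgeR adjusted p = 0.537).

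Of 16 other protein tyrosine phosphatase genes 0 passed by edgeR, 3 had an unadjusted p below 0.05, DESeq2 called 2, and voom called 2 higher and 5 lower. Ptprs, a receptor phosphatase, had 169, 231, 144 and 163 CPM in the double mutant against 106, 101, 87.1 and 79.2 CPM in WT (0.92 ± 0.214 SE, edgeR adjusted p = 0.133; DESeq2 0.0128). Ptprm had 0.0919, 0.45, 0.749 and 0.21 CPM in the double mutant against 1.35, 0.981, 8.76 and 5.93 CPM in WT (-3.50 ± 0.838, adjusted p = 0.16; DESeq2 0.00127). Neither overlapped between the groups. Ptpn7, a phosphatase of MAP kinases, had 105 to 199 CPM in the double mutant against 55.4 to 99.7 CPM in WT, also without overlap (1.16 ± 0.411, adjusted p = 0.537).

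Of the 18 STAT5 and cytokine feedback genes 0 passed by edgeR and 1 by DESeq2, voom called 7 higher and 2 lower, 3 had an unadjusted p below 0.05, 14 were positive and the median was 0.54. Socs2, a feedback inhibitor induced by STAT5, had a negative fold change, with 0.398, 0.657, 0.944 and 0.90 CPM in the double mutant against 3.80, 2.86, 2.23 and 2.17 CPM in WT, without overlap (-1.93 ± 0.436 SE, edgeR adjusted p = 0.12; DESeq2 0.00275). Ccnd1, cyclin D1, had 704, 586, 201 and 525 CPM in the double mutant against 117, 145, 304 and 172 CPM in WT (1.45 ± 0.634, adjusted p = 0.601). Of 20 ERK feedback and immediate early genes 0 passed by edgeR or DESeq2, voom called 2 higher and 2 lower, 2 had an unadjusted p below 0.05, 17 were positive and the median was 0.59. Egr2, an immediate early factor, had 14.3, 135, 6.19 and 33.0 CPM in the double mutant and 3.98, 3.69, 20.3 and 8.46 CPM in WT (2.37 ± 1.32, adjusted p = 0.601). Without double-mutant replicate 2 the medians of these lists were 0.23 and 0.13.

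Immune gene lists had mostly positive fold changes. Voom called 17.3% of all tested genes higher, and its share of the MHC class II list was near that. In the MHC class II and costimulation list 0 of 16 genes passed by edgeR, 2 by DESeq2 and 3 by voom, all higher. Of these 16 genes 6 had an unadjusted p below 0.05, and 15 were positive. Library ranges did not overlap for 4, all higher, where 2.94% of all tested genes were higher without overlap. The list's median was 1.37, or 0.57 without double-mutant replicate 2. Cd80, a costimulatory ligand for T cells, had 27.8, 26.2, 21.3 and 36.4 CPM in the double mutant against 13, 14.2, 13.5 and 16.4 CPM in WT (log2 fold change 0.97 ± 0.251 SE, edgeR adjusted p = 0.227; DESeq2 0.0303). Ciita, the master regulator of class II genes, had 7.93, 19.5, 14.8 and 12 CPM in the double mutant against 6.15, 2.68, 3.23 and 6.15 CPM in WT (1.57 ± 0.433, adjusted p = 0.302; DESeq2 0.0382). H2-Ab1, a class II chain, had 63.8, 847, 89.7 and 73.8 CPM in the double mutant against 19.8, 8.49, 127 and 40.9 CPM in WT (2.45 ± 1.32, adjusted p = 0.601). For H2-Ab1 replicate 2 alone stood far above the rest, whereas Cd80 and Ciita were above WT in all 4 libraries. The dendritic cell markers summed to 172 to 599 CPM in the double mutant against 130 to 169 CPM in WT. Itgax alone averaged 198.3 ± 168.2 CPM in the double mutant and 43.4 ± 12.25 CPM in WT (SD, n = 4 each). The list's mean log2 CPM overlapped, at 0.635 to 2.45 in the double mutant and 0.9375 to 1.22 in WT. Of 12 tested markers 8 were positive and 4 negative, Flt3 and Itgae among the negative ones. EdgeR and DESeq2 called 0, and voom called 2 higher and 1 lower. The part of these markers in the result was not tested.

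Of 27 inflammatory cytokine and chemokine genes 0 passed by edgeR or DESeq2, voom called 9 higher, 4 had an unadjusted p below 0.05, 23 were positive and the median was 1.16, or 0.24 without double-mutant replicate 2. Nos2, inducible nitric oxide synthase, had 3.06, 0.865, 6.81 and 2.55 CPM in the double mutant against 1.59, 0.345, 0.412 and 0.426 CPM in WT (2.26 ± 0.653 SE, edgeR adjusted p = 0.348). Ccl3, a macrophage chemokine, had 31.6, 48.7, 5.96 and 10.5 CPM in the double mutant and 6.09, 4.72, 7.18 and 7.32 CPM in WT (1.93 ± 0.625, adjusted p = 0.442). Of 23 interferon response genes 0 passed by edgeR or DESeq2, and voom called 4 higher, near its share of 17.3% over all genes. Of these 23 genes 1 had an unadjusted p below 0.05, 18 were positive and the median was 0.63, or 0.23 without double-mutant replicate 1. Irf7, which amplifies the interferon response, had 143, 16.4, 67.1 and 54.9 CPM in the double mutant and 50.9, 13.4, 17.5 and 26.6 CPM in WT (1.38 ± 0.78, adjusted p = 0.601). Replicate 1 was the highest library of the double mutant and of WT for Irf7, and replicate 2 of the double mutant overlapped WT.

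Cell cycle genes all had positive and oxidative phosphorylation genes all negative fold changes, with none passing by edgeR or DESeq2. Of the 28 cell cycle genes 1 had an unadjusted p below 0.05, and the median log2 fold change was 0.72, or 0.25 without double-mutant replicate 1. Top2a, topoisomerase of dividing cells, had 801, 115, 250 and 572 CPM in the double mutant against 280, 258, 165 and 275 CPM in WT (0.83 ± 0.633 SE, edgeR adjusted p = 0.611). Replicates 1 and 4 of the double mutant were above every WT library and replicates 2 and 3 were not. Of the 30 oxidative phosphorylation genes 0 had an unadjusted p below 0.05, and the median was -0.45, or -0.70 without double-mutant replicate 3. Sdha, a complex II subunit, had 438, 374, 957 and 435 CPM in the double mutant against 860, 994, 626 and 867 CPM in WT (-0.60 ± 0.381, adjusted p = 0.601), with replicate 3 again at the WT level. Voom called 15 cell cycle genes higher and 26 oxidative phosphorylation genes lower, where it called 17.3% of all genes higher and 15.0% lower.

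Of 22 glycolysis and hypoxia genes 0 passed by edgeR or DESeq2, and voom called 2 higher, below its share of 17.3% over all genes. Of these 22 genes 2 had an unadjusted p below 0.05, and 21 were positive. Their median was 0.37, or 0.10 without double-mutant replicate 3, 0.24 without WT replicate 1 and 0.59 without WT replicate 4. Ankrd37, a hypoxia target, had 2.85, 2.18, 7.20 and 2.28 CPM in the double mutant against 0.553, 0.743, 0.996 and 1.78 CPM in WT, without overlap (1.83 ± 0.561 SE, edgeR adjusted p = 0.38). Of 19 targets of the antioxidant factor NRF2 0 passed by edgeR or DESeq2, voom called 7 higher, 2 had an unadjusted p below 0.05, 17 were positive and the median was 0.51, or 0.18 without double-mutant replicate 2. Nqo1, a quinone reductase, had 70.3, 54.4, 7.69 and 69.3 CPM in the double mutant against 15.1, 9.44, 16.9 and 7.82 CPM in WT (2.04 ± 0.757, adjusted p = 0.565). Replicate 3 was once more the library at the WT level. Lists of cholesterol synthesis, lysosomal hydrolases, iron handling, coupling factors and the BCL2 family had medians between -0.13 and 0.05, and edgeR and DESeq2 called 0 of their genes. Voom called 3 cholesterol genes lower, 1 lysosomal gene higher and 6 lower, 2 iron genes higher and 5 lower, 5 coupling genes lower, and 4 BCL2 family genes higher and 3 lower. ITAM costimulation genes had a median of 0.32 with 18 of 22 positive, or 0.09 without double-mutant replicate 2 and 0.19 without WT replicate 2; edgeR and DESeq2 called 0 of them and voom 4 higher and 2 lower.

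Markers of other myeloid cells were mixed. Of 18 tested resident macrophage genes edgeR called 1 (Vsig4), DESeq2 4, all lower, and voom 1 higher and 8 lower. Of these 18 genes 6 had an unadjusted p below 0.05, all lower. Ranges did not overlap for 4, all lower, where 2.56% of all tested genes were lower without overlap. Yet 9 genes were positive and the median was -0.00. It lay between -0.89 (without double-mutant replicate 2) and 0.20 with 1 library left out. Cd163, a scavenger receptor, had 0, 0.0346, 0.163 and 0.06 CPM in the double mutant against 0.519, 0.398, 2.78 and 2.52 CPM in WT (log2 fold change -4.51 ± 0.917 SE, edgeR adjusted p = 0.0831; DESeq2 1.59e-04). Timd4, a receptor for dying cells, had 0.138 CPM in double-mutant replicate 2 and 0 in the others, against 0.311, 0.371, 1.75 and 2.24 CPM in WT (adjusted p = 0.102; DESeq2 0.00136). FLT3 ITD alone was also low, averaging 0.298 ± 0.222 CPM for Cd163 and 0.0604 ± 0.0436 CPM for Timd4. Ptprc KO averaged 1.57 ± 0.883 CPM for Cd163 and 1.345 ± 0.983 CPM for Timd4 (SD, n = 4 each). By contrast Marco, another scavenger receptor, had 48.6, 48.1, 10.4 and 11.8 CPM in the double mutant and 6.40, 5.94, 11.4 and 15.8 CPM in WT (1.59 ± 0.763, adjusted p = 0.601). The summed level of all 20 markers overlapped, at 1620 to 6080 CPM in the double mutant and 1860 to 5190 CPM in WT. Their part in the lower Vsig4 and Cd5l was not tested.

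Granulocyte markers were low and uneven. Of 14 neutrophil genes 0 passed by edgeR, DESeq2 or voom, 1 had an unadjusted p below 0.05, 12 were negative and the median was -1.84, or -1.13 without WT replicate 3. They had a summed level of 19.8 to 225 CPM in the double mutant and 12.8 to 190 CPM in WT. The granule gene Ngp had 0.0306, 2.42, 0.0326 and 2.43 CPM in the double mutant and 0.207, 0, 26.9 and 11.9 CPM in WT (edgeR adjusted p = 0.601), with WT replicates 3 and 4 the highest. Ly6g was at 0 in all 8 libraries. Of the 4 tested mast cell, basophil and eosinophil genes 3 were negative and 1 positive. Their median was -1.27, or 0.60 at a mean count of at least 50. Ear2 had 0 to 0.0346 CPM in the double mutant against 0.38 to 5.05 CPM in WT (edgeR adjusted p = 0.102, DESeq2 4.57e-04). Prg2 and Ccr3 had log2 fold changes of -2.05 and -0.49, and Siglecf 1.74. EdgeR called 0 of the 4, DESeq2 Ear2 and Prg2, and voom 3 lower. In all 8 libraries 8 of 18 listed genes were at 0. Of 8 tested progenitor markers edgeR called 0 and DESeq2 2, both higher, and voom 3 higher and 1 lower; 5 had an unadjusted p below 0.05. The list had 4 positive and 4 negative members and a median of 0.06, which lay between -0.27 and 0.23 with 1 library left out. Sox4, a transcription factor, had 1.1 to 3.88 CPM in the double mutant against 3.49 to 6.23 CPM in WT (log2 fold change -1.10 ± 0.328 SE, edgeR adjusted p = 0.368), and Flt3, given above, had a log2 fold change of -1.58 (edgeR adjusted p = 0.589). Cd34 had 0.796, 3.46, 0.847 and 1.5 CPM in the double mutant against 0.38, 0.504, 0.412 and 0.355 CPM in WT, without overlap (1.98 ± 0.469 SE, edgeR adjusted p = 0.15; DESeq2 0.014). Ly6a, which encodes Sca-1, had 132, 21.6, 66.9 and 61.5 CPM in the double mutant against 22.6, 4.85, 8.07 and 8.49 CPM in WT (2.68 ± 0.669, adjusted p = 0.193; DESeq2 0.00328). B cell, T cell, erythroid, endothelial and stromal lists had 1 to 10 tested genes each and 0 calls by edgeR. DESeq2 called Epor, the erythropoietin receptor, of the erythroid list, lower (adjusted p = 0.0132). Epor averaged 0.00814 CPM in the double mutant, 0.00782 in FLT3 ITD, 0.499 in Ptprc KO and 0.6475 in WT (n = 4 each). The other tested members of that list, Ppbp and Pf4, had positive log2 fold changes of 0.90 and 0.35. Voom called 1 gene each of the erythroid, T cell, stromal and endothelial lists. Ms4a1, a B cell surface marker, was at 0 in all 8 libraries.

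The double-mutant cultures thus differed among themselves, and so did the single-mutant cultures. The mean log2 CPM of the resorption list was 8.29, 8.70, 9.80 and 8.34 in double-mutant replicates 1 to 4, against 9.6, 9.78, 9.65 and 9.78 in WT. For the MHC class II list it was 3.76, 5.91, 3.85 and 4.02 in the double mutant against 3.12, 2.37, 4.16 and 3.34 in WT. For the cell cycle list it was 7.41, 5.31, 5.86 and 7.04 in the double mutant against 6.09, 6.00, 5.59 and 6.11 in WT. In the double mutant, replicate 3 was therefore the one high in resorption genes, replicate 2 the one high in MHC class II genes, and replicates 1 and 4 the ones high in cell cycle genes. For the MHC class II list, FLT3 ITD replicates 1 to 4 had 3.38, 2.97, 3.59 and 5.255. Ptprc KO replicates 1 to 4 had 2.97, 3.08, 2.36 and 4.64. For the resorption list, the values were 10.17, 10.28, 10.14 and 9.04 in FLT3 ITD and 9.36, 10.39, 10.33 and 9.48 in Ptprc KO. Divergence between replicates was thus not limited to the double mutant. Whether its size differed between genotypes was not tested. In a principal component analysis of 1000 genes, component 1 held 53.4% of the variance; on it, double-mutant replicate 3 lay at 20.8 and the other 3 between -50.7 and -29.1, while WT lay between -3.30 and 40.8. The day on which each culture was harvested was not given, so culture age and genotype cannot be told apart library by library.

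**Figure D5:**
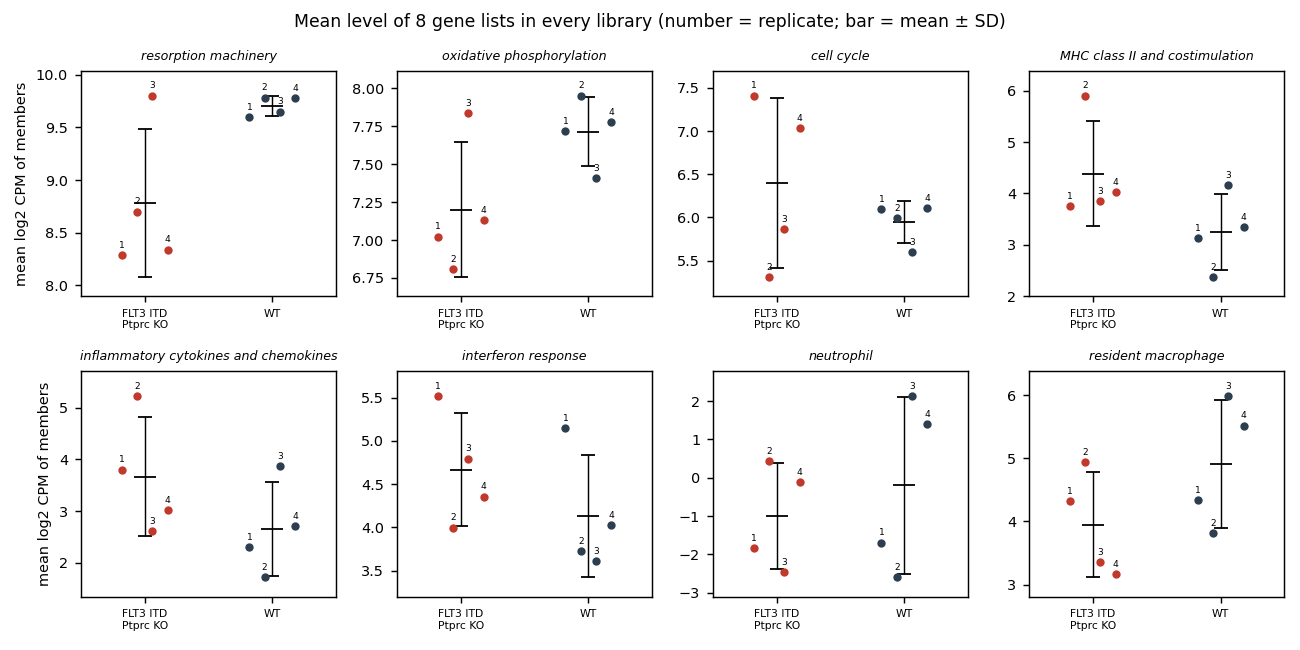
Mean log2 CPM of the members of 8 gene lists in each FLT3 ITD Ptprc KO library (left) and WT library (right), with digits for replicate numbers and bars for mean ± SD (n = 4); the vertical axes do not start at zero. Double-mutant replicate 3 is at the WT level for resorption and oxidative phosphorylation, replicate 2 is highest for MHC class II and inflammatory genes, and replicates 1 and 4 for the cell cycle.

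By position, 4 of the 13 called genes, Gng11, Tfpi2, Dysf and Clec2f, lie on chromosome 6, which holds 4.79% of the tested genes, and 10.4% of its genes had an unadjusted p below 0.05, against 7.89% of all tested genes, 10.7% on chromosome 16, which holds 0 called genes, and 10.2% on chromosome 13. Chromosome 17 holds 2, and chromosomes 1, 3, 9, 13, 15, 19 and X hold 1 each. Within 10 Mb of Ptprc, 78 genes were tested, 0 others were called and 8 had an unadjusted p below 0.05. Within 10 Mb of Flt3, 134 genes were tested, 0 were called and 8 had an unadjusted p below 0.05.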

How the data were processed

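RNA sequencing libraries (poly(A)-selected, directional kit with unique molecular identifiers, per the labels' protocols) were processed by the authors on GRCm38.p6. The submitters' processing notes name STAR 2.7.6a, featureCounts 2.0.3, UMI-tools 1.1.1, cutadapt 4.2 and bcl2fastq. The strand setting and treatment of multi-mapping reads are not stated. The authors deposited raw gene counts and TPM values for 16 libraries.

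The deposited counts entered edgeR 4.0.16 (R 4.3.3): filterByExpr, trimmed mean of M-values factors, group means of 4 genotypes over all 16 libraries (12 residual degrees of freedom), robust quasi-likelihood F-tests, Benjamini-Hochberg adjustment, threshold 0.05. The biological coefficient of variation was 0.37. Standard errors are the fold change divided by the root of F. TPM values were used as log2(TPM + 1) in a limma 3.58.1 alternative, and DESeq2 1.42.0 and limma voom were others. Mean list levels use log2 CPM with a prior count of 2. The 95% interval of a count ratio is exact for counts alone, and counting intervals and floors of 3 counts cover counting error only. Genes named were those called with a mean of at least 5 CPM in a group and ranges that do not overlap, and called genes with 0 counts in a group. On each side the 6 next by p that met the same level and overlap conditions were named too. Predicted gene models, immunoglobulin segments and Y-linked genes were left out. A further 5 called genes were named after their values were seen. The genes compared and the gene lists were chosen with earlier results of these data known. The CCAAT and kappaB motifs were added after the H2-Q promoters had been read. The model was tested on simulated data. Coordinates are from GENCODE (GRCm38), where 21817 of 21936 gene identifiers were found. The 13 called genes were matched by symbol to the RefSeq promoter table, which held 9 of them.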

Additional observations from a re-analysis of the deposited data

Results flagged for a closer look

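In groups of 4 libraries a value was singled out when its gap to the nearest other value was, as a share of the group's range, above Dixon's 95% limit. Of 109 groups examined, for the 13 called genes, 10 osteoclast markers and 32 list means, 15 were singled out (13.8%). The limit is set for about 1 in 20 among independent, normally spread values. Here the osteoclast markers moved together and Dysf was singled out on 1 count, so these shares cannot be compared. By edgeR the interaction passed for 0 of the 13 called genes, by DESeq2 for 2 and by voom with quality weights for 6.

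Double-mutant replicate 3 was the highest of its group, and apart from it, for 7 genes: Ctsk at 8510 CPM, Acp5 at 7130 CPM, Mmp9, a gelatinase, at 27400 CPM, Oscar at 201 CPM, Ocstamp, a fusion protein, at 452 CPM, Car2 at 379 CPM and Akr1c12 at 4.17 CPM. Double-mutant replicate 2 was highest for the mean log2 CPM of the MHC class II list, 5.91, and of the STAT5 list, 4.61. Double-mutant replicate 1 was lowest for the progenitor list, at a mean log2 CPM of 1.11, and was the library with the Dysf count, at 0.0306 CPM.

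Among WT libraries, replicate 2 was lowest for Ptprc at 412 CPM, replicate 3 was lowest for Il7 at 0.275 CPM and highest for the NRF2 list at a mean log2 CPM of 7.39, and replicate 4 was highest for Oscar at 209 CPM. What set these libraries apart was not tested.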

How the results depend on the processing

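All 13 called genes kept their sign in every alternative where they were tested, and Ptprc kept its call in all. Calls numbered 11 (3 higher, 8 lower) with DESeq2-style size factors in edgeR, 10 (2 higher, 8 lower) without a filter, 5 (2 higher, 3 lower) at a mean count of at least 50, 1 (0 higher, 1 lower) with only the 8 libraries, and 11 (4 higher, 7 lower) with FLT3 ITD replicates 1 and 3 summed and 2 left out. DESeq2 called 117 (37 higher, 80 lower), limma voom with quality weights 3898 (2089 higher, 1809 lower), limma on log2(TPM + 1) 8 (1 higher, 7 lower) and on log2(TPM + 0.1) 4 (0 higher, 4 lower). Chosen after seeing the data, voom without quality weights called 7 (1 higher, 6 lower), and leaving out double-mutant replicates 2 and 3 together gave 33 (15 higher, 18 lower). Leaving out 1 library gave 1 to 83 calls, 0 to 15 higher and 1 to 68 lower. Interactions passed for 0 of the 13 genes, but for 2 with DESeq2, for 6 with voom and quality weights, and for 0 to 2 with 1 library left out. The causes were not tested.

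With the replicate number as a block, 9 genes were called (2 higher, 7 lower), 6 of them among the 13. Same-numbered double-mutant and WT libraries had correlated deviations of 0.154, -0.543, -0.576 and -0.0495, so the numbers were not taken to pair the samples.

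Of 639 list medians recomputed, 13 moved by more than the spread between replicates. The resident macrophage, progenitor, monocyte and lysosomal medians changed sign in 9, 8, 6 and 6 of 20 alternatives. Vsig4, Dysf, Paqr9 and Clec2f rest on few counts.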
